A study of Mus musculus with 8 samples.

Results

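The core transcription factors of heart muscle were read in whole hearts of mice that overexpress PKR2, taken here as prokineticin receptor 2, and of WT mice. The set holds 10 genes: the zinc finger factors Gata4 and Gata6, the homeodomain factor Nkx2-5, the T-box factors Tbx5 and Tbx20, the MADS-box factors Mef2a, Mef2c, Mef2d and Srf, and the basic helix-loop-helix factor Hand2. They were found by gene name among the probes of the arrays, which gave 23 probes of these 10 genes, out of 41174 probes and 27745 gene names in all. The labels give 4 WT mice and 4 mice labelled PKR2 overexpression. All were males aged 12 weeks, and each heart was hybridised in 1 colour to its own array of mouse oligonucleotide probes. The labels used here name neither the strain nor the promoter or cell type that drives PKR2, so nothing can be said of which heart cells carry it.

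These factors bind the regulatory regions of sarcomere, ion channel and natriuretic peptide genes, often side by side and in direct contact with each other. GATA4, NKX2-5, TBX5 and MEF2C together are known for setting up the heart muscle programme in the embryo, and most of them stay on in the adult cardiomyocyte, where GATA4, MEF2 and SRF also take part in the response to load. SRF binds a short A and T rich element, the CArG box, in the promoters of actin and other contractile genes, and it does so with the coactivator myocardin.

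The CArG box was looked for near known start sites, since the Srf gene is itself a known target of its protein. Only the exact form CCWWWWWWGG, with W for A or T, was counted as a box. Among 32851 RefSeq promoters (GRCm38.p6, the 250 bases before each start, both strands, where the element reads as a CArG box on either strand alike), 482 (1.47%) hold at least 1 CArG box. Of the 7 members with an entry (Nkx2-5, Tbx20, Mef2a, Mef2c, Mef2d, Hand2 and Srf), Srf alone holds a match, with 2 boxes that begin 82 and 62 bases before its start. From a list of 22 SRF target genes 15 have an entry, and 5 of these (Acta1, Actg1, Egr2, Myl9 and Vcl) hold a match. A promoter without a match can still hold a near form. That of Acta2 has the stretches ccctatatgg and ccttgtttgg, which each miss the exact form by 1 letter. The promoters of Srf (chr17:46556163-46556412, minus strand) and of Acta1, the skeletal alpha-actin of stressed and fetal heart muscle (chr8:123894776-123895025, minus strand), are shown because Srf is the member and Acta1 the target on that list with the smallest unadjusted p among those with a box. Each runs 5′ to 3′ towards the start site, with the CArG boxes in capitals.
Srf: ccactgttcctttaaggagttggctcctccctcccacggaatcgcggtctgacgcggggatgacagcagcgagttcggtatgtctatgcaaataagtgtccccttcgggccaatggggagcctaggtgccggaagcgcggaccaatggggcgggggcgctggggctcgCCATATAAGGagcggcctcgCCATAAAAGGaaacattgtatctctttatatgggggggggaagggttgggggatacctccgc
Acta1: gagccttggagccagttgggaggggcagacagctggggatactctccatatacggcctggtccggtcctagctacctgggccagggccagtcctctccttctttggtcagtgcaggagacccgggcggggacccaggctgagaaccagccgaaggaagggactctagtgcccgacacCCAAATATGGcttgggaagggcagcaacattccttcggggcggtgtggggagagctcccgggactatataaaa
The Acta1 box begins 73 bases before its start. A match is a stretch of letters and does not show that SRF bound there in these hearts.

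The arrays differed in brightness before scaling. The 75th percentile of processed signal ran from 40.9 in WT 2 to 770 in PKR2 1, and WT 2 and PKR2 1 also had the lowest and the highest share of spots well above background, 48.3% and 67.1%. The scanner used a single range for WT 2, WT 4 and PKR2 4 and an extended one for the other 5 arrays. Slides 5 and 6 each carried 1 WT and 1 PKR2 array, and all 4 PKR2 arrays shared an array position with WT 1 alone. Markers of heart muscle were bright in both groups. Myh6, the main myosin heavy chain of the adult mouse heart, stood at 8.92 ± 0.28 in WT and 8.97 ± 0.32 in PKR2 hearts, and Tnni3, cardiac troponin I, at 8.66 ± 0.13 and 8.70 ± 0.28. These levels are log2 signal relative to the array's own 75th percentile, and so are all levels below, as mean ± SD with n = 4 hearts where no other form is given. The receptor's own probe, for Prokr2, stayed below background in all 8 hearts, with values between -7.35 and -5.25. Overexpression was thus not seen with this probe in the PKR2 hearts. Whether it can read the transgene is not known, so it gives no check of the labels.

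The members were expressed above background more often than the array's probes as a whole. Of the 23 probes 17 (73.9%) were well above background on all 8 arrays, against 46.1% of all 41174 probes, and every one of the 10 genes had at least 1 such probe. Another 3 were above background on some arrays, and 3 on none. The test took in the 20 probes that cleared background in 3 or more hearts of either group. None of the 3 probes below background everywhere was the gene's main probe: 2 belong to Tbx20 and 1 to Mef2c. Signal depends on the probe as well as on the transcript, so levels are compared between hearts for 1 probe at a time and the genes are not ranked by level. In RNA from a whole heart, fewer cells of a type and less RNA per cell cannot be told apart.

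No probe of the 10 genes passed limma's test between PKR2 and WT hearts. With all 22717 tested probes in the fit, 0 of the 20 member probes had an adjusted p under 0.05, and the background share was the same, 0% of all probes. No member probe reached an unadjusted p under 0.05 either, where 586 probes (2.58%) did so among all. Every member probe showed overlap between the 4 WT and the 4 PKR2 values, while 415 probes (1.83%) of all tested did not overlap, 1.06% with PKR2 higher and 0.77% with PKR2 lower. The limma adjusted p was 1.0 for each member probe, so it is not repeated beside each value. By brightest probe 7 genes read higher and 3 lower in PKR2 hearts, and the median over the 10 was 0.12 on the log2 scale. Over all tested probes 54.2% were higher and the median difference was 0.019. This split moved with the scaling: 9 genes were higher with normexp background correction, which took the share over all probes to 41.8% and their median to -0.12, and 6 were higher with median scaling, which gave 41.0%. With the authors' deposited values 6 were higher, against 49.0% of all probes. The median size of the difference, without its sign, was 0.14 for the 10 genes and 0.13 for all tested probes. For all 10 genes the 95% interval of the brightest probe lay within 2-fold in either direction in this fit. The lowest limit was 0.595-fold and the highest 1.74-fold. Over the 20 tested probes 18 intervals lay within 2-fold. The third Gata6 probe reached 2.79-fold and the second Gata4 probe 0.498-fold. These limits hold for this processing only, since the differences moved with other settings.

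**Figure D1:**
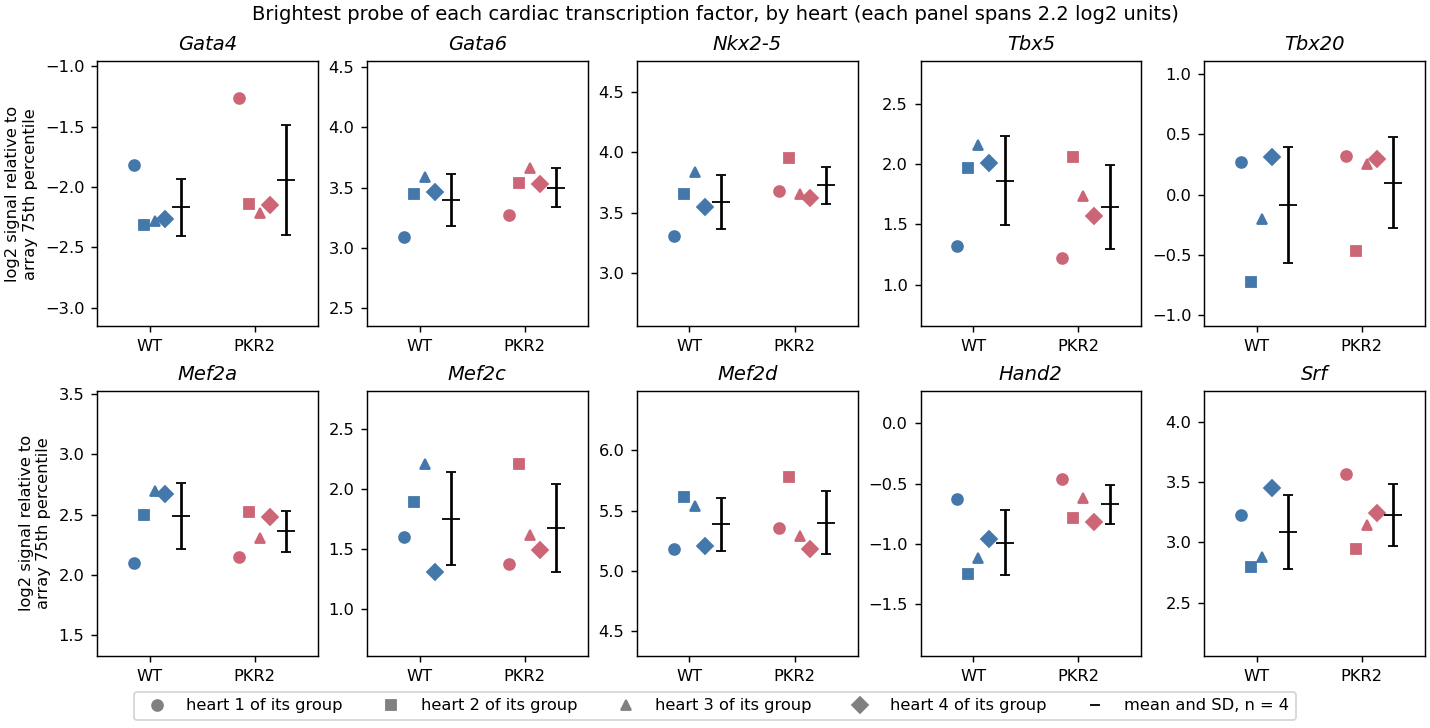
Level of the brightest probe of each of the 10 genes in every heart, as log2 signal relative to the array's 75th percentile, with the group mean and SD (n = 4) as a black bar. All panels span the same height; in each gene the WT (blue) and PKR2 (red) points overlap, and Hand2 comes closest to separating, with WT 1 among the PKR2 points.

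Hand2, a factor known for the growth of the right ventricle, showed the largest difference by brightest probe, and its second probe gave nearly the same values. The brighter probe read -0.63, -1.25, -1.12 and -0.96 in WT 1 to WT 4. In PKR2 1 to PKR2 4 it read -0.46, -0.78, -0.62 and -0.82. All 4 PKR2 hearts lay above WT 2, WT 3 and WT 4, but WT 1 lay among the PKR2 hearts. The means were -0.99 ± 0.27 and -0.67 ± 0.16, a difference of 0.32 (SE 0.18, 95% interval -0.08 to 0.72), which is 1.25-fold with limits of 0.945 and 1.64. The second probe gave 0.34 (SE 0.18, -0.06 to 0.74), again with 3 WT hearts below all PKR2 hearts and WT 1 (-1.0) above PKR2 2, PKR2 3 and PKR2 4 (-1.09, -1.12 and -1.13). These probes are not independent: their listed places on chromosome 8 (mm8, 60214596 to 60215955 and 60214559 to 60215918) are offset by 37 bases. Within slides the brighter probe differed by 0.50 on slide 5 and 0.14 on slide 6, and the second by 0.32 and 0.27. With array position as a covariate, which sets the PKR2 hearts against WT 1 alone, both differences turned, to -0.05 and -0.03. Hand2 is also known from sympathetic neurons and the epicardium. Of 10 sympathetic and chromaffin markers 5 were tested, 2 higher and 3 lower in PKR2 hearts, with a median of -0.04. Phox2a, Ddc and Chgb were above background on all 8 arrays and Gata3 and Slc18a2 on 6. Th was above background on no array and Dbh on 2. The mean level of the 5, each gene centred on its own mean, ran from -0.01 to 0.08 in WT and from -0.50 to 0.35 in PKR2 hearts. The mesothelial and epicardial list of 10 genes (Msln at 3.33 ± 0.23 in WT and 3.04 ± 0.39 in PKR2 hearts, Upk3b at 0.84 ± 0.49 and 0.79 ± 0.40) had 0 members higher in PKR2 hearts, at a median of -0.26. Its mean level, each gene centred on its own mean, ran from 0.03 to 0.22 in WT hearts. It was -0.46 and -0.40 in PKR2 1 and PKR2 2, but 0.22 and 0.12 in PKR2 3 and PKR2 4, within the WT range. The adipocyte list had 0 of 10 tested members higher, with a mean level (each gene set to its own mean over the 8 hearts) of -0.10 to 1.23 in WT and -2.09 to 0.40 in PKR2 hearts. The part of these cells in any member's value was not tested.

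Gata4, which works with NKX2-5 on natriuretic peptide promoters, had 1 heart of each group far from the rest. Its brighter probe (mm8 chromosome 14, 62153025 to 62153046 as listed) read -1.82, -2.31, -2.28 and -2.26 in WT 1 to WT 4. The PKR2 hearts read -1.26, -2.14, -2.22 and -2.15 in the same order. WT 1 and PKR2 1 stood apart above the other 6 hearts, which lay close together and overlapped. The difference was 0.23 (SE 0.24, 95% interval -0.31 to 0.76), and it was 0.07 on slide 5 and 0.12 on slide 6, which hold neither of those hearts. It was 0.00024 without PKR2 1 and 0.34 without WT 1. The second Gata4 probe was printed at 10 spots of each array and gave a difference of -0.0030 (SE 0.45, -1.01 to 1.0). In it PKR2 2 (-3.94) and WT 2 (-3.83) were the lowest, and WT 4 (-2.12) and PKR2 1 (-2.21) the highest. None of its 10 spots was well above background in WT 2 and 5 were in PKR2 2, and the SD over spots within an array ran from 0.075 to 0.66. The difference between the groups, 0.41 on slide 5 and -0.40 on slide 6, had no steady sign.

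Gata6, the other GATA factor of adult heart muscle, was among the steadiest members by its brightest probe, though not by its other probes. Its brightest probe stood at 3.09, 3.45, 3.58 and 3.47 in the WT hearts. The PKR2 hearts gave 3.27, 3.53, 3.66 and 3.53. WT 1 was lowest, PKR2 1 next, and the other 6 hearts lay within a narrow band in which the groups interleaved. The difference was 0.10 (SE 0.17, -0.27 to 0.47), with 0.08 on slide 5 and 0.07 on slide 6. A second probe differed by 0.26 (SE 0.22). The third, the one placed farthest upstream, was above background in 1 WT and 3 PKR2 hearts and differed by 0.64 (SE 0.38, -0.20 to 1.48), the largest value of any member probe. This probe entered the test through the PKR2 hearts alone, the group in which it read higher. Its levels of -5.27 to -3.40 in WT and -4.40 to -3.38 in PKR2 hearts overlapped, and the difference turned to -0.62 with normexp background correction.

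Nkx2-5, the homeodomain factor that is turned on early in heart muscle and is needed for the conduction system, has 1 probe (mm8 chromosome 17, 26566265 to 26566324). WT hearts read 3.30, 3.65, 3.84 and 3.55. In the PKR2 hearts the values were 3.68, 3.95, 3.66 and 3.62. PKR2 2 was the highest of the 8 and WT 1 the lowest, while WT 3 lay above the other 3 PKR2 hearts. Means of 3.59 ± 0.22 and 3.73 ± 0.15 differed by 0.14 (SE 0.17, -0.23 to 0.51). The sign was not the same on both slides, at -0.18 on slide 5 and 0.07 on slide 6.

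The T-box factors gave values of opposite sign, neither past the test. Tbx5, which acts in the atria, the left ventricle and the conduction system, read 1.32, 1.96, 2.16 and 2.01 in WT hearts with its brighter probe. PKR2 hearts read 1.22, 2.05, 1.73 and 1.57. PKR2 1 and WT 1 were the lowest, and PKR2 2 lay between WT 4 and WT 3. The difference of -0.22 (SE 0.24, -0.75 to 0.31) was the lowest of the 10 genes, and it was -0.42 on slide 5 and -0.44 on slide 6. Its other probe read -2.08 ± 0.22 and -2.03 ± 0.24, a difference of 0.05 (SE 0.18). Of the atrial muscle markers, 5 of 9 tested genes were higher and 4 lower, with a median difference of 0.07, and the first of the list, Sln and Myl7, stood at 7.34 ± 0.39 and 7.91 ± 0.37 in WT and 7.27 ± 0.39 and 7.82 ± 0.25 in PKR2 hearts.

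Tbx20, a T-box factor that keeps adult cardiomyocytes contracting, has 4 probes. The brightest, designed on a cDNA clone and placed farthest downstream, read 0.27, -0.72, -0.20 and 0.31 in WT hearts. The PKR2 values were 0.32, -0.47, 0.25 and 0.30. WT 2 and PKR2 2 were the lowest hearts of their groups, and the rest overlapped. The probe for transcript variant 1 gave the reverse order in part, with -0.57, 0.43, 0.62 and -0.42 in WT and -0.61, 0.17, 0.12 and 0.29 in PKR2 hearts. WT 1 and PKR2 1, high by the first probe, were the lowest by the second. The group differences were 0.19 (SE 0.27, -0.43 to 0.80) and -0.02 (SE 0.31, -0.72 to 0.68). The first probe minus the second ran from -1.15 in WT 2 to 0.93 in PKR2 1, so heart-to-heart spread in Tbx20 depends on which probe is read. The probe for transcript variant 2 and a probe for a further cDNA were not well above background on any array.

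The MEF2 factors, which are held in check by class IIa histone deacetylases, gave values near 0 by their brightest probes. Mef2d read 5.18, 5.61, 5.54 and 5.21 in WT hearts by its brightest probe. The PKR2 hearts read 5.35, 5.78, 5.29 and 5.18. The highest value was in PKR2 2 and the lowest in PKR2 4, so the PKR2 hearts spanned the WT range, and the difference was 0.014 (SE 0.19, -0.40 to 0.43). The other 2 probes gave 0.08 (SE 0.22) and 0.25 (SE 0.28), the latter above background in 3 WT and 4 PKR2 hearts.

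Mef2a read 2.10, 2.50, 2.70 and 2.67 in WT and 2.15, 2.52, 2.30 and 2.48 in PKR2 hearts by its brightest probe. WT 1 and PKR2 1 were the lowest of their groups, WT 3 and WT 4 the highest of all. That difference was -0.13 (SE 0.18, -0.53 to 0.28). Both further Mef2a probes, which lie upstream of the first, read higher in PKR2 hearts, by 0.35 (SE 0.22, -0.14 to 0.84) and 0.34 (SE 0.25, -0.22 to 0.90). The probes of 1 gene thus differed in sign. Mef2c, the MEF2 factor needed first in the embryonic heart, read 1.6, 1.89, 2.21 and 1.31 in WT and 1.38, 2.21, 1.62 and 1.49 in PKR2 hearts. WT 3 and PKR2 2 were high, WT 4 and PKR2 1 low, and the difference was -0.08 (SE 0.25, -0.63 to 0.47). A second Mef2c probe, designed on a retina clone, was not well above background on any array.

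Srf has 1 probe, which read 3.22, 2.80, 2.88 and 3.45 in WT hearts. PKR2 hearts read 3.57, 2.95, 3.14 and 3.24. PKR2 1 was highest and WT 2 lowest, with the other 6 hearts interleaved. The difference was 0.14 (SE 0.20, -0.32 to 0.59), at 0.26 on slide 5 and -0.21 on slide 6.

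**Figure D2:**
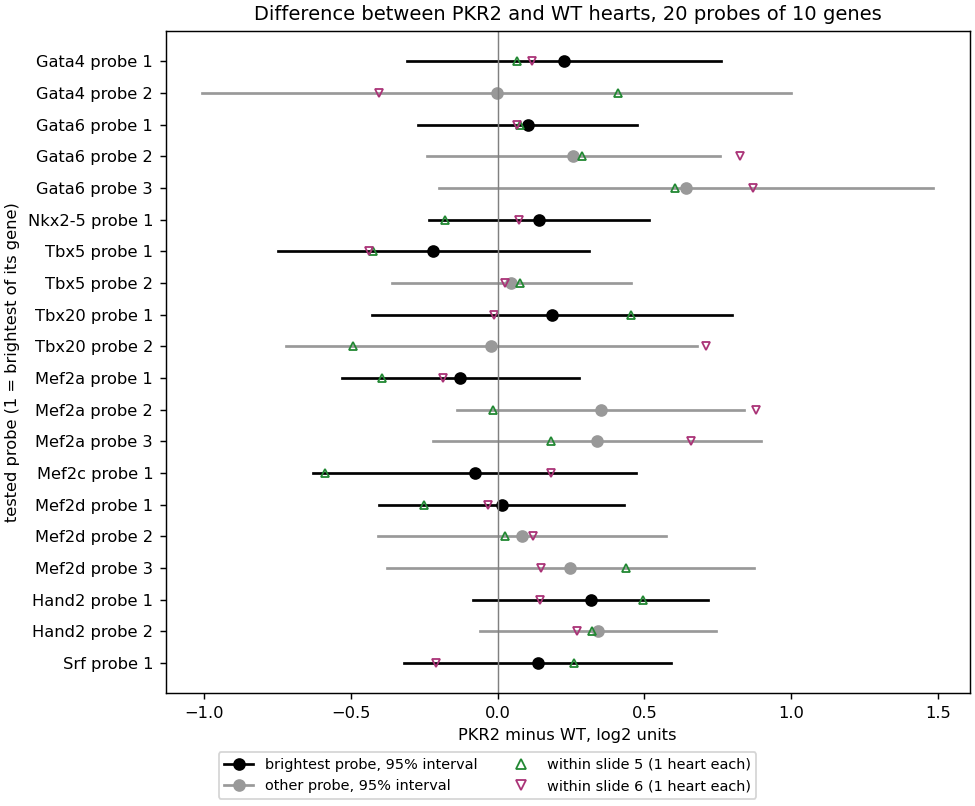
PKR2 minus WT difference of the 20 tested probes on the log2 scale, with limma's 95% interval (black for the brightest probe of a gene, grey for others) and the difference between the single WT and PKR2 hearts of slide 5 and of slide 6 (triangles). Every interval crosses 0, and the slide triangles of Gata4 probe 2, Nkx2-5, Tbx20, Mef2a probe 2, Mef2c and Srf fall on both sides of it.

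Where the groups could be set against each other on the same slide, the 10 genes showed no common direction by their brightest probes. The median over the 10 brightest probes was -0.057 on slide 5 and 0.027 on slide 6. Gata4, Gata6 and Hand2 were higher in the PKR2 heart on both slides, Tbx5, Mef2a and Mef2d were lower on both, and the remaining 4 changed sign. When slide entered the fit as a fixed block, so that these 4 arrays alone bear on it, the median difference of the 10 genes went from 0.12 to -0.014. Over the 20 tested probes, which are not independent within a gene, the medians on slides 5 and 6 were 0.077 and 0.12. Of these probes 13 and 14 were higher, 10 on both slides, and 3 were lower on both. With the fixed block 15 of the 20 were higher, beside 48.6% of all tested probes.

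In each of the 10 genes the range over the 4 hearts of either group was larger than the difference between the group means. Gata4, Tbx20 and Tbx5 had the widest ranges over the 8 hearts, 1.05, 1.04 and 0.94. The pooled SD within groups was below the median of all tested probes (0.31) for 6 of the 10 genes, from 0.19 in Gata6 and Nkx2-5, and reached 0.43 in Tbx20. The members did not rise and fall together across hearts. PKR2 1 was the highest heart for Gata4, Tbx20, Hand2 and Srf, and WT 2 the lowest for the same 4 genes. These were also the arrays with the highest and the lowest share of spots above background, and the part of brightness in these 4 genes was not tested. PKR2 1 was at the same time the lowest heart for Tbx5. WT 3 was highest for Tbx5, Mef2a and Mef2c, and WT 1 lowest for Gata6, Nkx2-5 and Mef2a. By the root mean square difference of their centred levels over the 8 hearts, the closest pair was Nkx2-5 and Mef2d (0.13), followed by Gata6 and Nkx2-5 (0.14), and the farthest Tbx20 and Mef2c (0.68).

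**Figure D3:**
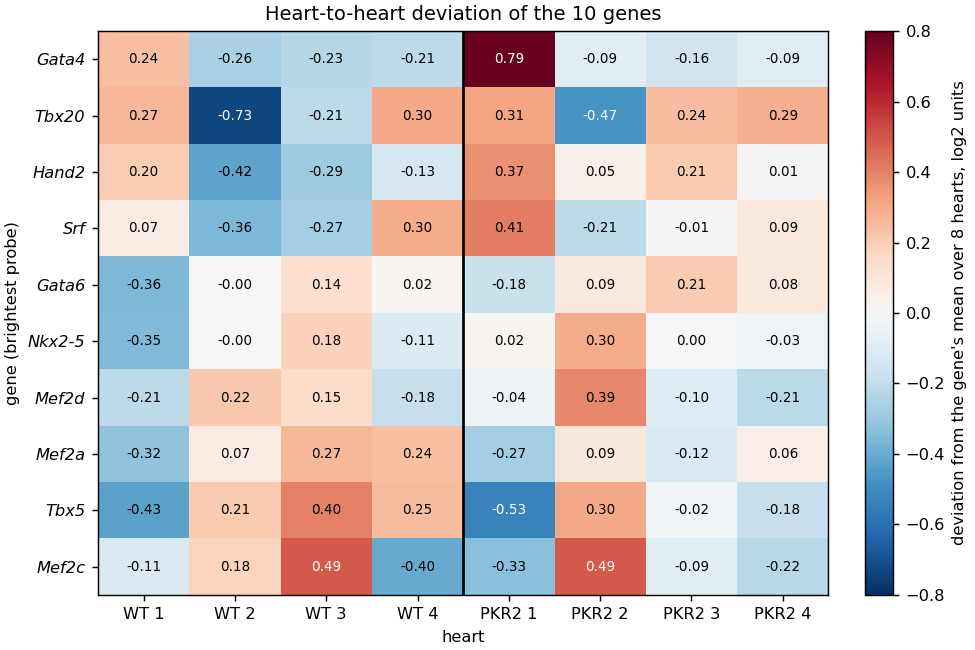
Deviation of each gene's brightest probe from its own mean over the 8 hearts, in log2 units, printed in each cell and coloured from low (blue) to high (red). Gata4, Tbx20, Hand2 and Srf are highest in PKR2 1 and lowest in WT 2, while Tbx5 is lowest in PKR2 1.

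For the 3 members with the widest range, the nearest of 10484 other named genes was found by the same measure over the 8 hearts. Gata4 had Kcnj11, a subunit of the ATP-sensitive potassium channel, at 0.049. The values of Kcnj11 were 1.85, 1.26, 1.38 and 1.38 in WT and 2.34, 1.45, 1.38 and 1.37 in PKR2 hearts, so it too was high in WT 1 and PKR2 1. Tbx20 had Aktip at 0.084, and Tbx5 had Mcm3, a subunit of the replicative helicase, at 0.046. With 8 hearts and this many candidates a close match is a description of these arrays.

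Probes at different places along 1 gene did not always follow each other between hearts. In 4007 genes with 2 or more tested probes, the most downstream and the most upstream lay 500 to 50000 genome bases apart (mm8). The downstream minus the upstream level, centred per gene, had a median of -0.14, 0.07, 0.11 and 0.18 in WT 1 to WT 4. Among the PKR2 hearts the medians were -0.21, 0.04, -0.01 and -0.05. WT 1 and PKR2 1 were the lowest hearts and the groups overlapped. This held in the 2968 genes whose downstream probe was the brighter, at -0.19 and -0.29 in those hearts, and not in the 1039 whose downstream probe was the dimmer, where they stood at 0.0068 and 0.033 and WT 2 and PKR2 2 were lowest, at -0.059 and -0.16. The order of hearts thus went with which probe was brighter as well as with its place, and in all 5 member pairs the downstream probe is the brighter. The same 2 hearts were lowest for Mef2a, at 2.87 and 2.75 before centring against 3.28 to 4.35 in the others, and for Tbx5, at 3.28 and 3.08 against 3.59 to 4.41. Gata6 was lowest in PKR2 1 (6.78) and highest in WT 4 (8.73). Tbx20 ran the other way, highest in PKR2 1 and WT 1. Over the 13 pairs of tested probes within a member gene, the change of the probe difference between groups had an exact permutation p (two-sided) of 0.257 to 0.971, with 0.854 as the lowest after Benjamini-Hochberg adjustment over the 13 pairs, and the groups overlapped in each pair. The smallest p that 4 against 4 allows is 0.0286. After adjustment over 13 pairs, a single fully separated pair could therefore not fall under 0.05. The adjusted values thus do not decide whether any 1 pair changed between groups. The part of probe brightness or of RNA quality in the members' values was not tested.

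**Figure D4:**
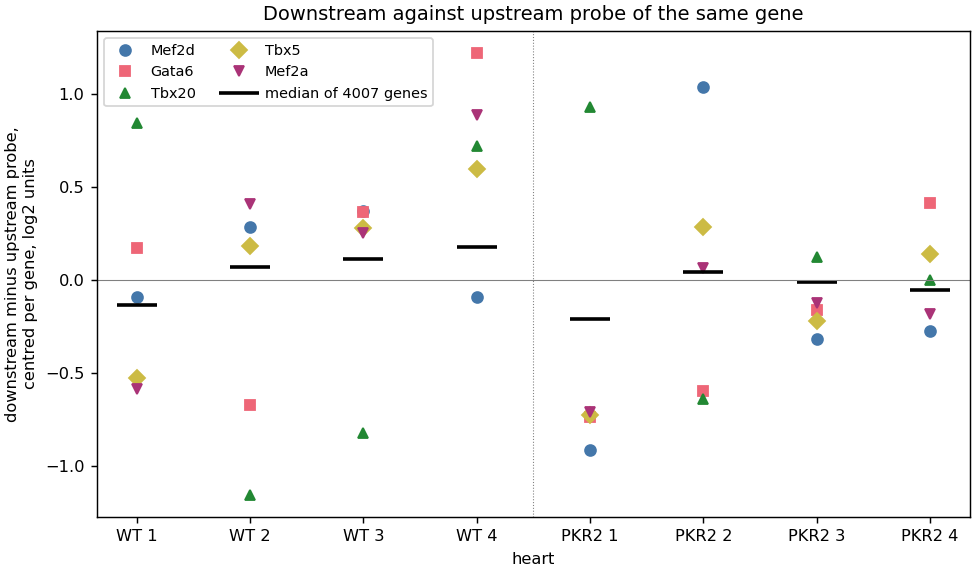
Downstream minus upstream probe level in each heart for the 5 members with such a pair (symbols), each centred on its mean over the 8 hearts, and the median of 4007 genes (black bars), in log2 units. WT 1 and PKR2 1 have the lowest medians, which holds only for genes with the brighter probe downstream, and the Mef2a and Tbx5 symbols are lowest there, while Tbx20 is highest.

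Partners and repressors of the factors were listed as 25 genes, of which 23 were tested, 11 higher and 12 lower in PKR2 hearts, with none past limma's threshold and a median difference of -0.01. With normexp 17 were higher and with quantile normalization 15, and leaving out 1 heart gave 10 to 15. The groups did not overlap in 1 of the 23, beside 1.83% of all tested probes, or 1.06% with PKR2 higher. That gene was Hopx, a homeodomain-only protein that restrains SRF, which read 5.27, 5.41, 5.43 and 5.46 in WT and 5.59, 5.85, 5.52 and 5.49 in PKR2 hearts. The lowest PKR2 heart lay just above the highest WT heart, and the difference was 0.22 (SE 0.15, limma adjusted p = 1.0), with 0.09 and 0.03 on slides 5 and 6. Myocd, which encodes myocardin, differed by 0.44 (SE 0.29, -0.19 to 1.08). It read 1.92, 0.97, 1.36 and 0.71 in WT and 1.84, 1.12, 1.89 and 1.88 in PKR2 hearts, so WT 1 was the highest of the 8 and PKR2 2 lay with the lower WT hearts. Smyd1, a muscle histone methyltransferase, differed by -0.31 (SE 0.21).

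Of 27 other transcription factors of heart development 22 were tested, 8 higher and 14 lower, with none past the threshold, a median of -0.05 and overlap in every gene. With normexp the split was 11 and 11. Higher genes outnumbered lower ones without PKR2 1 (15 higher), without WT 3 (14), without WT 2 (13) and with array position as a covariate (17, median 0.16). Hand1, a factor related to Hand2, Isl1 and Shox2 were not well above background on any array. The smallest p values in the list belonged to Nkx2-6, Irx3 and Irx4. Nkx2-6, a dim homeodomain gene related to Nkx2-5, differed by 0.43 (SE 0.17, 0.04 to 0.82). Irx3, which acts in the conduction system, differed by -0.64 (SE 0.32, -1.35 to 0.08), and Irx4, a ventricular factor, by 0.26 (SE 0.15, -0.09 to 0.60). Each had a limma adjusted p of 1.0.

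Among target genes of GATA, NK2, T-box and MEF2 factors, 26 were listed and tested. Of these 21 were higher and 5 lower in PKR2 hearts, and their median was 0.08 against 0.019 for all probes. The count of higher genes was 24 with normexp, 23 with quantile normalization, 18 with the authors' deposited values and 15 with median scaling. Over all tested probes the shares were 41.8%, 54.7%, 49.0% and 41.0% in the same order, and 54.2% in the main fit. With slide as a fixed block the count was 16, beside 48.6% of all probes. With scan range as a block the count was 18, beside 53.7%. It was 13 of 26 without PKR2 2, 15 without WT 4 and 14 with array position as a covariate, so the lean rests in part on single hearts. None passed, and the groups did not overlap in 1 of the 26, beside 1.06% of all tested probes in that direction. That gene was Myh7, the slow myosin heavy chain, which read 5.56, 5.63, 5.92 and 5.58 in WT and 6.58, 6.61, 6.30 and 6.0 in PKR2 hearts. The difference was 0.70 (SE 0.18, 0.29 to 1.11, limma adjusted p = 1.0), and it was 0.39 and 0.41 on slides 5 and 6. Nppb, the B-type natriuretic peptide, differed by 0.36 (SE 0.23) and Actc1, cardiac alpha-actin, by 0.26 (SE 0.17), both with overlap. The mean level of the list, each gene centred, ran from -0.14 to -0.01 in WT and from -0.07 to 0.15 in PKR2 hearts. Ventricular markers were higher in 6 of 6 genes (median 0.17, with Myl2 at 9.38 ± 0.28 and 9.47 ± 0.34 and Myl3 at 9.05 ± 0.09 and 9.14 ± 0.18) and cardiomyocyte markers in 11 of 15 (median 0.05), with group ranges that overlapped. Their part in the targets' values was not tested.

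Of the 22 SRF targets 21 were tested, 9 higher and 12 lower, with a median of -0.05. Normexp gave 16 higher and quantile normalization 11, and leaving out 1 heart gave 8 to 13. Cnn1 and Tagln, smooth muscle contractile genes, gave the values furthest below 0, -0.59 (SE 0.41) and -0.44 (SE 0.39), and are named after their values were seen. The 3 of smallest p were actins, all higher in PKR2 hearts under every alternative tried. They were picked by p in these same hearts, so the steady sign adds no support. Acta1, whose promoter is printed above, read 3.54, 4.05, 3.57 and 4.12 in WT and 4.46, 4.20, 4.07 and 4.43 in PKR2 hearts. WT 4 lay above PKR2 3, and the difference was 0.47 (SE 0.19, 0.04 to 0.90). Acta2, smooth muscle alpha-actin, read 4.93, 4.99, 4.97 and 4.86 in WT and 5.35, 5.21, 5.36 and 5.31 in PKR2 hearts. The groups did not overlap, and the difference was 0.36 (SE 0.13, 0.07 to 0.66), with 0.38 and 0.45 on slides 5 and 6. Actg2 gave 0.36 (SE 0.14), also without overlap, but its sequence is nearly that of Acta2, so the probes may read the same transcripts and the value is uncertain. No gene of the list passed, with a limma adjusted p of 1.0 for these 3, and 2 of 21 without overlap stand beside the background of 1.06% for that direction. Smooth muscle and pericyte markers, which hold Acta2 too, were higher in 7 of 10 genes with a median of 0.05. Their mean level ran from -0.24 to 0.26 in WT and from -0.17 to 0.14 in PKR2 hearts. Myh11, the smooth muscle myosin, stood at 0.96 ± 0.66 in WT and 0.77 ± 0.65 in PKR2 hearts, and Rgs5, a pericyte marker, at 4.01 ± 0.35 and 4.38 ± 0.24.

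The other cell types of the heart were read through their markers, of which the first 2 of each list are named by level. Endothelial markers (Pecam1 at 0.14 ± 0.42 in WT and 0.38 ± 0.35 in PKR2 hearts, Cdh5 at 3.26 ± 0.20 and 3.17 ± 0.16) were higher in 6 of 10 genes, with a mean level of -0.16 to 0.12 in WT and -0.13 to 0.17 in PKR2 hearts. Fibroblast markers (Col1a1 at 4.47 ± 0.58 and 4.48 ± 0.59, Pdgfra at 0.62 ± 0.39 and 0.53 ± 0.14) were higher in 7 of 10, with -0.29 to 0.18 and -0.18 to 0.13. Macrophage markers (Csf1r at 1.22 ± 0.32 and 1.26 ± 0.17, Adgre1 at 2.12 ± 0.52 and 2.03 ± 0.46) were higher in 4 of 10, with -0.23 to 0.37 and -0.19 to 0.40. The 10 tested adipocyte genes were above background on all 8 arrays and uneven, and Lep was above it on 2, with Adipoq at 3.58 ± 0.90 in WT and 1.24 ± 2.0 in PKR2 hearts and Plin1 at 3.37 ± 0.84 and 1.20 ± 1.75. WT 3 lay low among the WT hearts in the adipocyte list, and PKR2 1 and PKR2 2 lay low among the PKR2 hearts. Of the skeletal muscle list 3 of 10 genes were tested. Myh4, a fast myosin heavy chain, stood at 7.91 ± 0.47 and 7.99 ± 0.36, Tnnt3 was above background on 1 array, and Myog and Myf5, which define skeletal muscle precursors, were above background on no array. Mybpc2 was above background on all 8 arrays, Actn3 on 5, Myh2 on 3 and Myh1 on 1. Whether the Myh4 probe also reads other myosin heavy chains was not tested, so its level is uncertain. None of these lists had a gene past limma's threshold.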

How the data were processed

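RNA from 8 mouse hearts was measured, 4 WT and 4 PKR2, each on 1 Agilent array in 1 colour; per the labels, Tri-Reagent was used for extraction and Cy3 as the dye. Spot intensity, on a linear scale and not normalized between arrays, was deposited by the authors as written by Feature Extraction 9.5.1.1, which subtracts background per the file headers; probe positions refer to mm8. A set of normalized intensity values, also deposited by the authors, has column medians of 139 to 144; its scale was read as linear against the scanner values (r of 0.991 to 0.999 over bright probes), and its normalization is not given in the sources used here.

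The log2 of the processed signal minus each array's 75th percentile was tested with limma 3.58.1 (lmFit and eBayes) in R 4.3.3, data handled by data.table (version 1.17.8), with Benjamini-Hochberg adjustment across the 22717 tested probes and a threshold of 0.05. Control and outlier-flagged spots were left out and spots of 1 probe averaged. A probe entered the test if it cleared background in 3 or more hearts of either group; 97 more lacked an unflagged spot on some array. The brightest tested probe stands for a gene. On simulated data of 22717 probes, 37 of 100 probes shifted by 1 on the log2 scale and 88 of 100 shifted by 2 were recovered. The number of arrays limits the precision.

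All 23 probes of the 10 genes are named. Of each list of partners, other factors and targets the 3 genes of smallest p are named, of each marker list the first 2, and for the 3 members of widest range the nearest gene. The members and lists were chosen with earlier results of these data known. Replicate numbers follow accession order and pair nothing. The labels describe separate mice only through the group sizes, so p-values measure the spread between these samples. Alternatives were normexp (offset 50), quantile and median scaling, the authors' deposited values, other filters, 1 probe per gene, slide, position and scan range as terms, and leaving out each array. Promoters and gene names come from RefSeq (GRCm38.p6), and exons were not looked up in mm8.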

Additional observations from a re-analysis of the deposited data

Results flagged for a closer look

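Each of the 20 tested member probes was examined in both groups for a heart far from the other 3, by the gap from the highest or lowest heart to the nearest other one as a share of the group's range. Of these 40 groups 6 had a share above Dixon's 95% critical value for 4 samples, which independent normal samples pass about 1 time in 20. The groups are not independent, since they share the same hearts and some probes overlap. The flagged share over all tested probes was not computed, so the count is not read as an excess in these genes. The brighter Gata4 probe was flagged in both groups, at 0.901 for WT 1 (-1.82, next highest -2.26) and 0.922 for PKR2 1 (-1.26, next highest -2.14). Nkx2-5 was flagged at 0.837 for PKR2 2, at 3.95 with the next highest at 3.68. The brightest Tbx20 probe was flagged at 0.913 for PKR2 2, at -0.47 with the next lowest at 0.25. The second Mef2d probe was flagged at 0.839 for PKR2 1, at -0.72 with the next highest at -1.28. The second Hand2 probe was flagged at 0.865 for PKR2 1, at -0.82 with the next highest at -1.09. PKR2 1 accounts for 3 of the 6 flags, and it is the array with the highest share of spots above background.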

How the results depend on the processing

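Of 19 alternatives, 8 of which left out 1 heart each, none gave a member probe that passed. Over all probes the count that passed was 0, but 1 with only probes above background on all 8 arrays, 1 with slide as a random block and 5 with array position as a covariate; leaving out 1 heart gave 0 to 1, with 1 when PKR2 3 was left out. The median difference of the 10 genes was 0.12 and moved to -0.014 with slide as a fixed block; the other settings gave 0.058 to 0.18, and leaving out 1 heart 0.024 to 0.13. Of the 32 named genes and probes 12 never turned sign, among them Gata6 probe 1, Srf, Hopx, Myh7 and Acta2. Gata6 probe 1 fell to 0.00024 with 1 heart left out, and the lowest value of Srf was 0.00077, so both came close to 0. The lowest value of Myh7 was 0.40. Hopx, Myh7 and Acta2 had been named for their small p in these same hearts. Probes are numbered by brightness. With normexp, Gata4 probe 1 (-0.33), Gata6 probe 3 (-0.62), Tbx5 probe 1 (0.026), Tbx5 probe 2 (-0.52), Mef2a probe 1 (0.087), Mef2a probe 2 (-0.092), Mef2a probe 3 (-0.33), Mef2c (0.14), Mef2d probe 2 (-0.17), Mef2d probe 3 (-0.50), Smyd1 (0.022) and Nkx2-6 (-0.018) turned sign. With median scaling, Tbx5 probe 2 (-0.015) and Mef2d probe 1 (-0.047) turned sign. With the authors' deposited values, Mef2d probe 1 (-0.025) turned sign. With slide as a fixed block, Gata4 probe 2 (0.0030), Nkx2-5 (-0.053), Tbx20 probe 2 (0.11) and Mef2d probe 1 (-0.14) turned sign. With slide as a random block, Tbx20 probe 2 (0.024) and Mef2d probe 1 (-0.040) turned sign. With array position as a covariate, Gata4 probe 1 (-0.13), Tbx5 probe 1 (0.32), Tbx5 probe 2 (-0.076), Tbx20 probe 1 (-0.17), Tbx20 probe 2 (0.57), Mef2a probe 1 (0.26), Mef2a probe 2 (-0.088), Mef2a probe 3 (-0.22), Mef2c (0.073), Mef2d probe 2 (-0.40), Hand2 probe 1 (-0.046), Hand2 probe 2 (-0.035) and Myocd (-0.23) turned sign. With scan range as a block, Tbx5 probe 2 (-0.041), Tbx20 probe 2 (0.020), Mef2d probe 1 (-0.011) and Mef2d probe 2 (-0.0097) turned sign. Without 1 heart at a time, these ranged across 0: Gata4 probe 2 -0.34 to 0.37, Mef2d probe 1 -0.11 to 0.089, Tbx20 probe 1 -0.026 to 0.38, Tbx20 probe 2 -0.22 to 0.18, Mef2c -0.26 to 0.073, Tbx5 probe 2 -0.061 to 0.16, Mef2d probe 2 -0.069 to 0.24 and Mef2d probe 3 -0.0015 to 0.51. The brighter Gata4 probe ran from 0.00024 to 0.34 without crossing 0. The cause of these turns was not tested. The labels give no replicate numbers to pair hearts by; the hearts that share slides 5 and 6 were compared within the slide and through slide as a block. Dim probes are limited by signal over background: the second Gata4 probe, the third Gata6 probe and the third Mef2d probe were above background on only some arrays, and with 4 hearts a group the 95% interval of a member probe reached a median of 0.49 to either side.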
